A study of Sus scrofa with 41 samples.

Results

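CIC and the genes described here around it form 1 axis of the signalling that runs from growth factor receptors through RAS and ERK to transcription. The set holds 7 genes out of 25880 in the gene counts: CIC itself, the ETS family factors ETV1, ETV4 and ETV5, and the feedback genes SPRY4, DUSP6 and SPRED1. They were taken by their pig Ensembl symbols, and all 7 symbols matched a single gene. The genes were chosen by their coefficients on feed conversion ratio (FCR) in these pigs, so their values on FCR are given as a description without a test, whereas breed, RNA integrity, age, batch and the relations among the genes were tested. The list was drawn up with results of these pigs on breed and RNA integrity known as well, so the tests of those terms are not independent of the choice of genes.

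The data are mRNA sequencing counts from the psoas major muscle, a deep loin muscle, of 41 purebred uncastrated male pigs raised at 1 breeding station. Danbred Duroc pigs numbered 13 and Danbred Landrace pigs 28, each pig giving 1 library. The Duroc pigs were 131 to 156 days old at sampling (median 148) with FCR of 1.83 to 2.18, and the Landrace pigs 147 to 166 days old (median 154.5) with FCR of 1.92 to 2.25. The study's text describes FCR in one place as feed consumed over weight gained and in its methods as growth divided by feed. Label values of these sizes are those of feed divided by growth, and are read so here: a high FCR is then more feed for the same growth. RNA integrity number (RIN, a score of how intact the RNA was) ran from 7.0 to 8.8 in Duroc and from 6.5 to 8.3 in Landrace. Both breeds were spread over batches 2 to 5, with a single Duroc pig in batch 1, and the study's methods tie batch to the day of slaughter.

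CIC (Capicua) is a DNA-binding repressor that sits on the genes of the ETV1, ETV4 and ETV5 factors and on feedback genes of the pathway. When ERK is active, CIC is phosphorylated and leaves its targets, and these genes come on. SPRY4 and SPRED1 restrain RAS activation, DUSP6 removes phosphate from ERK, and in muscle fibres ETV5 is known for its part in the gene programme of nuclei beneath the nerve ending.

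The read pairs counted on genes numbered 22188911 to 25954816 per library, which was 69.9% to 80.9% of all pairs in its counts. CIC lies on chromosome 6 at 49638986 to 49664146, ETV1 on chromosome 9 at 83322818 to 83567136, ETV4 on chromosome 12 at 19531507 to 19548303 and ETV5 on chromosome 13 at 123873346 to 123930292. SPRY4 lies on chromosome 2 at 143877334 to 143891280, DUSP6 on chromosome 5 at 93303058 to 93307510 and SPRED1 on chromosome 1 at 132903103 to 133016725 (all in build Sscrofa11.1, from the RefSeq gene table by symbol). The libraries kept no strand, and a RefSeq gene overlaps the span of ETV1 (LOC100625701) and of SPRED1 (LOC106506784), so reads of these pairs may not be separable. Reads on the 7 genes were few except for CIC. The lowest, median and highest counts were 85, 537 and 805 for CIC, 9, 22 and 68 for ETV1, and 14, 66 and 441 for ETV5. SPRY4 had 33, 81 and 200, DUSP6 33, 97 and 237, and SPRED1 28, 76 and 156. ETV4 had 0, 12 and 629. Its count was 0 in 2 pigs and under 5 in 10 pigs, and it did not pass the filter on low counts that the other 6 genes passed.

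In CPM, which are counts scaled by library size with TMM normalization, the 13 Duroc pigs ran from 5.45 through a median of 20.5 to 27.0, and the 28 Landrace pigs from 5.90 through 20.6 to 25.6. The breeds overlapped over almost the whole range, and 1 pig in each breed lay far below its breed. These were Duroc replicate 10 and Landrace replicate 27, with 86 and 85 CIC counts. The SD of log2 CPM was 0.466 for CIC against a median of 0.345 over all genes, and 0.269 against 0.239 after the model's covariates were taken out, so CIC was not among the steadier genes.

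ETV1 was low in every pig. It ran from 0.469 through 0.996 to 1.71 CPM in Duroc and from 0.458 through 0.999 to 2.29 CPM in Landrace, with complete overlap of the breeds. ETV5 was far more variable. Its CPM ran from 0.734 through 3.10 to 16.3 in Duroc and from 0.680 through 2.02 to 13.1 in Landrace. After the model's covariates were taken out, its SD on the log2 scale was 0.971 against a median of 0.239 over all 11146 genes tested, larger than that of 99.5% of them. ETV4 had the widest spread. It ran from 0.0432 through 2.79 to 23.3 CPM in Duroc and from 0 through 0.210 to 17.7 CPM in Landrace, so that 24 of the 41 pigs lay under 1 CPM. ETV4 reached 5 CPM in 9 pigs (4 Duroc and 5 Landrace), ETV5 reached 5 CPM in 9 pigs, and these were the same 9 pigs.

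The 3 feedback genes varied less. SPRY4 ran from 1.36 through 3.61 to 7.27 CPM in Duroc and from 1.49 through 2.45 to 6.45 CPM in Landrace. DUSP6 ran from 2.39 through 3.93 to 8.78 CPM in Duroc and from 1.46 through 3.46 to 7.23 CPM in Landrace. SPRED1 ran from 1.64 through 3.33 to 4.89 CPM in Duroc and from 1.76 through 2.74 to 4.41 CPM in Landrace. For all 3 the Duroc median was the higher, and the breeds overlapped over most of their range.

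**Figure D1:**
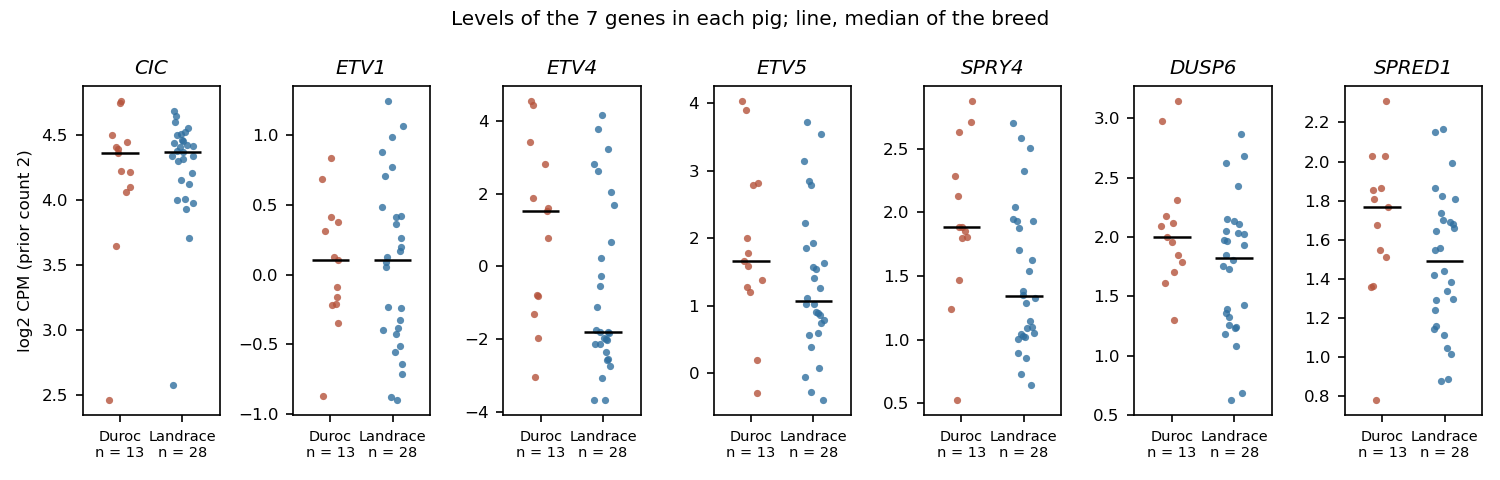
Level of each gene in each pig, as log2 CPM with a prior count of 2 (vertical axes, one scale per gene), for 13 Duroc and 28 Landrace pigs (points); the black line is the median of the breed. CIC has 1 pig far below the rest in each breed, whereas ETV4 and ETV5 spread over several log2 units in both breeds.

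ETV4 and ETV5 varied together with genes that muscle fibres express at the neuromuscular junction and with genes of Schwann cells, the glia that wrap motor axons. The pig with the most ETV4 (Duroc replicate 4, 23.3 CPM) had 16.3 CPM of ETV5, 12.5 CPM of ACHE (acetylcholinesterase) and 29.3 CPM of CHRNA1 (a subunit of the muscle acetylcholine receptor). The next pig (Duroc replicate 6, 21.6 CPM of ETV4) had 14.8 CPM of ETV5, 15.4 CPM of ACHE and 16.5 CPM of CHRNA1. Landrace replicate 7, with 17.7 CPM of ETV4, had 13.1 CPM of ETV5, 7.86 CPM of ACHE and 21.1 CPM of CHRNA1. The order of these 3 pigs by ETV5 was the same as by ETV4.

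Over the 41 pigs, with FCR, RIN, age, breed and batch taken out of the log2 CPM of each gene, ETV4 and ETV5 correlated at Pearson's r = 0.892 and Spearman's rho = 0.822 (permutation p of 1e-05 for each, the smallest that the permutations can give, and 6e-05 after Benjamini-Hochberg adjustment over the 6 pairs of ETV4). The relation stood at r = 0.910 within Duroc and 0.891 within Landrace, at 0.877, 0.947 and 0.746 within batches 2, 3 and 5, and at 0.865 without the 2 pigs farthest from the ETV4 median. Batches 1 and 4 held too few pigs for a value. As a description, the same measure for single marker genes gave ETV4 an r of 0.879 with SOX10 (a transcription factor of Schwann cells), 0.740 with PRX and 0.669 with PMP22. SOX10 was too low in most pigs to pass the filter and was at 0 in 4 pigs. Of the neuromuscular junction list, 6 of 10 genes matched, and ETV4 had an r of 0.819 with ACHE, 0.766 with CHRNA1, 0.601 with CHRNE, 0.539 with COLQ, 0.513 with MUSK and 0.318 with LRP4. ETV5 followed the same genes, at 0.784 with ACHE, 0.741 with CHRNA1, 0.761 with SOX10 and 0.698 with PRX. In whole muscle, more cells of a type and more RNA per cell cannot be told apart.

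**Figure D2:**
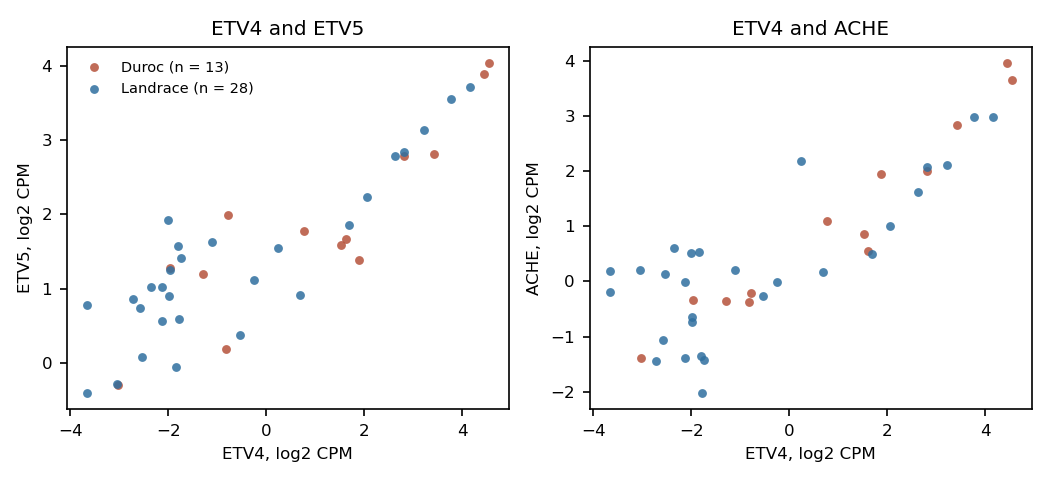
ETV4 (horizontal axes) against ETV5 and the acetylcholinesterase gene ACHE (vertical axes), all as log2 CPM with a prior count of 2 and without adjustment, 1 point per pig. In each panel the pigs of both breeds with the most ETV4 are also among those with the most of the other gene, while below a log2 CPM of about 0 for ETV4 the points scatter.

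The summed level of the 6 junction genes ran from 8.07 through 12.9 to 53.7 CPM in Duroc and from 4.82 through 10.9 to 37.6 CPM in Landrace. A score was then made for each of 11 lists as the mean of the scaled, adjusted values of its genes that passed the filter, and related to each gene of the axis. ETV4 correlated at r = 0.786 with the junction score (rho = 0.721) and at r = 0.794 with the Schwann score, which held PRX and PMP22 (rho = 0.756; adjusted permutation p = 5.5e-05 for each over the 11 scores). ETV5 stood at r = 0.782 and 0.784 (rho = 0.756 and 0.745, adjusted permutation p = 0.00033 for each over the 66 pairs of 6 genes and 11 scores). DUSP6 stood at r = 0.657 with the junction score (rho = 0.570, adjusted permutation p = 0.00044) and SPRY4 at r = 0.493 (rho = 0.460, adjusted permutation p = 0.00981). For SPRED1 the values were 0.145 with the junction score and 0.0154 with the Schwann score, and neither passed. Without the 2 farthest pigs the r with the junction score was 0.743 for ETV4, 0.741 for ETV5, 0.573 for DUSP6 and 0.453 for SPRY4. Within batch 5 the r of ETV4 with the junction score was 0.381 and that of SPRY4 0.159, lower than in batches 2 (0.720 and 0.396) and 3 (0.940 and 0.651).

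SPRED1 went with the vessel and connective tissue lists, at r = 0.509 with the endothelium score (rho = 0.532, adjusted permutation p = 0.00726), 0.477 with fibroblasts (rho = 0.453, adjusted permutation p = 0.0136) and 0.428 with satellite cells (rho = 0.455, adjusted permutation p = 0.0318). These values were higher within Duroc (0.734, 0.828 and 0.880) than within Landrace (0.350, 0.181 and 0.233), a difference that was not tested. The relation of SPRED1 with endothelium was 0.513, 0.825 and -0.0885 within batches 2, 3 and 5, so it did not hold in batch 5. SPRY4 passed with endothelium as well (r = 0.341, rho = 0.356, adjusted permutation p = 0.0992). ETV1 passed with endothelium (r = 0.415, rho = 0.328, adjusted permutation p = 0.0346) and satellite cells (r = 0.401, rho = 0.311, adjusted permutation p = 0.0439), but within batch 2 stood at 0.0998 and -0.0396. ETV5 also correlated with the satellite cell score (r = 0.483, rho = 0.471, adjusted permutation p = 0.0119), at 0.297, 0.597 and 0.645 within batches 2, 3 and 5. ETV1 was lower where the skeletal muscle fibre score was higher (r = -0.489, rho = -0.499, adjusted permutation p = 0.00981), and at -0.249, -0.492 and -0.711 within those batches. No pair of a gene of the axis with the immediate-early genes, the rapid transcriptional response to growth factors and handling, passed. In all, 19 of the 66 pairs passed at 0.1, and the share over all genes with the same scores was not worked out. Of these, ETV1 with the junction score (r = 0.347) stood at -0.227 in Duroc, ETV1 with slow fibres (0.359) at -0.197 in Duroc, and SPRED1 with skeletal muscle fibres (-0.386) at 0.265 in batch 5. The part of cell content in the levels of the axis was not tested.

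The 5 targets that passed the filter correlated with each other, and of the pairs with CIC only that with ETV1 passed. Among the 15 pairs of the 6 genes, 11 passed at an adjusted permutation p of 0.1, and these included all 10 pairs without CIC. Ranked by r with SPRED1 among the 11145 other genes, SPRY4 stood at 254, ETV1 at 572, DUSP6 at 596 and ETV5 at 1850. By r with ETV1, SPRY4 stood at 54, DUSP6 at 111, ETV5 at 314 and SPRED1 at 505. Many genes outside the axis thus had as high an r as some of these pairs. SPRY4 and DUSP6 had the highest value, r = 0.740 (rho = 0.687, adjusted permutation p = 7.5e-05), with 0.759 in Duroc, 0.754 in Landrace and 0.660, 0.806 and 0.667 within batches 2, 3 and 5. ETV5 and DUSP6 had r = 0.706 (rho = 0.563, adjusted permutation p = 7.5e-05), with 0.880 in Duroc, 0.619 in Landrace and 0.644, 0.819 and 0.606 within the batches. ETV1 and SPRY4 had r = 0.601 (rho = 0.598, adjusted permutation p = 0.0003), with 0.527, 0.686 and 0.614 within the batches. The weakest of the 10 was ETV5 with SPRED1, r = 0.306 (rho = 0.336, adjusted permutation p = 0.0704), and 0.228 without the 2 farthest pigs, where it no longer passed. The pairs of ETV1 with ETV5 (0.0591), ETV1 with SPRED1 (-0.230) and ETV5 with SPRY4 (0.0653) did not hold within batch 5, where all 3 were above 0.4 over all pigs. Among its 6 pairs ETV4 also passed with DUSP6 (r = 0.617, rho = 0.472, adjusted permutation p = 9e-05), SPRY4 (r = 0.450, rho = 0.396, adjusted permutation p = 0.00552) and ETV1 (r = 0.443, rho = 0.359, adjusted permutation p = 0.00552), at 0.417, 0.843 and 0.469, at 0.214, 0.773 and 0.0884, and at 0.466, 0.756 and 0.139 within batches 2, 3 and 5. ETV4 with SPRED1 (0.123) and with CIC (-0.0949) did not pass.

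CIC had values of -0.0830 with ETV5, -0.0252 with SPRY4, 0.0543 with DUSP6 and 0.122 with SPRED1, and none passed. CIC and ETV1 were inversely related, r = -0.456 (rho = -0.383, adjusted permutation p = 0.0033), with -0.282 in Duroc, -0.516 in Landrace and -0.281, -0.654 and -0.712 within batches 2, 3 and 5, and -0.381 without the 2 farthest pigs. That relation depended on how the values were scaled and adjusted: it was -0.177 (adjusted permutation p = 0.286) with scaling by library size only, and 0.0115 (adjusted permutation p = 0.945) in log2 CPM without adjustment. By r with CIC, ETV1 stood at rank 10419 of the 11145 other genes, and the lowest r of any gene with CIC was -0.820. An inverse r of this size was thus not particular to ETV1.

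**Figure D3:**
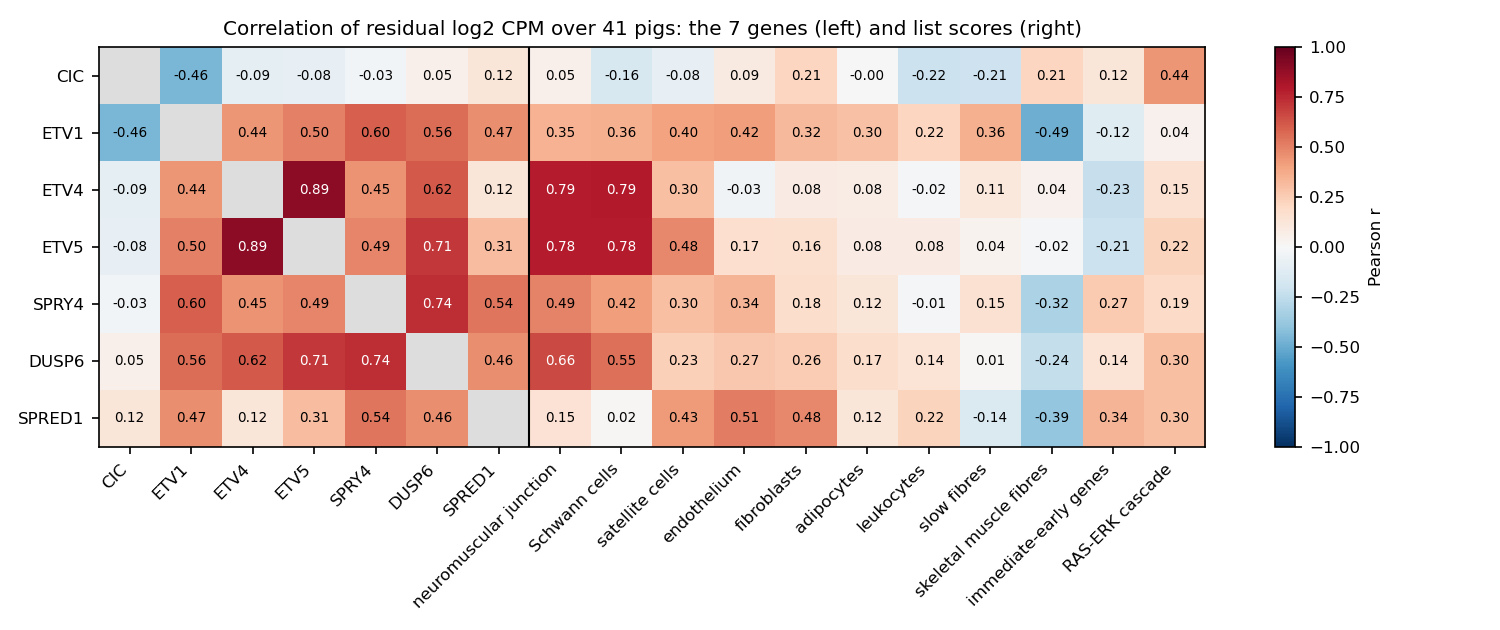
Pearson's r over 41 pigs between the 7 genes (rows) and each other (left of the line) or 11 list scores (right of the line), on log2 CPM with FCR, RIN, age, breed and batch taken out; colour runs from -1 (blue) to 1 (red). The block of ETV4, ETV5 and DUSP6 with the junction and Schwann cell columns is high (0.55 to 0.79), and the CIC row lies between -0.22 and 0.21 apart from ETV1 (-0.46) and the RAS-ERK cascade (0.44).

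The genes most like each member were also looked up among the 11146 genes. The closest to ETV4 were ETV5, ACHE (0.819) and PLEKHB1 (0.790), and to ETV5 ACHE (0.784), MAP2K1 (0.768), which encodes a kinase that activates ERK, and PLEKHB1 (0.762). Among the closest to SPRY4 were DUSP6 and UTRN (0.650), the gene of utrophin, a protein of the junction membrane. DUSP6 had SPRY4, CLDN1 (0.719) and ETV5 as its closest genes. ETV1 had TCF4 (0.717), PRTFDC1 (0.708) and DAZAP1 (0.691), and SPRED1 had YES1 (0.708), MIER1 (0.703) and CALCRL (0.693). CIC was closest to MICAL3 (0.893), ENSSSCG00000032522 (0.886) and KMT2B (0.879), a histone methyltransferase gene. DUSP6 ranked the highest of all 11145 other genes by its r with SPRY4, and SPRY4 the highest for DUSP6. By its r with CIC, SPRED1 was the best placed of the 5 targets that passed the filter, at rank 3582, and ETV1 the last, at rank 10419.

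Between breeds, with FCR and the other covariates in the model, the targets were lower in Landrace than in Duroc, and CIC did not pass the test. The breed term is not free of the choice of genes: it was fitted beside FCR, on which all 6 had coefficients above 0, and mean FCR was higher in Landrace (2.10) than in Duroc (1.97). In the edgeR quasi-likelihood fit with FCR, RIN, age, breed and batch, 5 of the 6 genes passed a false discovery rate (FDR, adjusted over all 11146 genes) of 0.1, all lower in Landrace, where 33.1% of all genes passed, 17.5% as lower in Landrace and 15.6% as higher. SPRY4 was lower by a log2 difference of -1.47 ± 0.22 (SE, edgeR FDR = 8.58e-06), which is 0.360 of the Duroc level. DUSP6 differed by -0.99 ± 0.24 (edgeR FDR = 0.00245), ETV5 by -1.76 ± 0.55 (edgeR FDR = 0.0173), SPRED1 by -0.58 ± 0.17 (edgeR FDR = 0.0136) and ETV1 by -0.66 ± 0.25 (edgeR FDR = 0.0464). CIC differed by 0.00 ± 0.14 (edgeR FDR = 0.997). The same 5 genes passed with DESeq2 and with limma, where 34.6% and 32.9% of all genes passed. ETV4 could be tested only without the filter on low counts, where it was lower in Landrace by -4.10 ± 1.19 (edgeR FDR = 0.0165, with 19.7% of 20225 genes passing).

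The size of these differences moved with the covariates in the model. With age alone left out all 5 targets still passed, and with FCR alone left out 4 did, ETV1 not (-0.50, edgeR FDR = 0.178). Without any covariate, RIN and batch included, the difference of mean log2 CPM was -0.00 ± 0.17 for ETV1, -0.52 ± 0.41 for ETV5, -0.44 ± 0.21 for SPRY4, -0.33 ± 0.18 for DUSP6, -0.20 ± 0.13 for SPRED1, -1.67 ± 0.81 for ETV4 and 0.08 ± 0.18 for CIC. The smallest permutation p was 0.0343 (SPRY4), and no gene passed after adjustment over the 7 (0.152 for SPRY4 and ETV4). With FCR and age both left out of the edgeR fit, 2 of the 6 genes passed, SPRY4 (-0.76, edgeR FDR = 0.00616) and DUSP6 (-0.63, edgeR FDR = 0.00939), while ETV1 stood at -0.12, ETV5 at -0.95 (edgeR FDR = 0.122) and SPRED1 at -0.26. The plain differences also varied among batches. In batches 3, 4 and 5 all 6 targets were lower in Landrace, with ETV5 at -1.44, -2.06 and -1.09, SPRY4 at -0.81, -0.78 and -0.95, DUSP6 at -0.62, -1.01 and -0.91 and SPRED1 at -0.39, -0.71 and -0.50. In batch 2, with 3 Duroc and 12 Landrace pigs, ETV5 stood at 0.76, SPRED1 at 0.29, ETV1 at 0.17, DUSP6 at 0.02, ETV4 at -0.02 and SPRY4 at -0.24. Without Duroc replicate 6, ETV5 stood at -1.24 and did not pass (edgeR FDR = 0.141). Without batch 2, ETV1 (-0.61, edgeR FDR = 0.239) and ETV5 (-1.70, edgeR FDR = 0.106) did not pass, at differences close to those over all pigs.

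**Figure D4:**
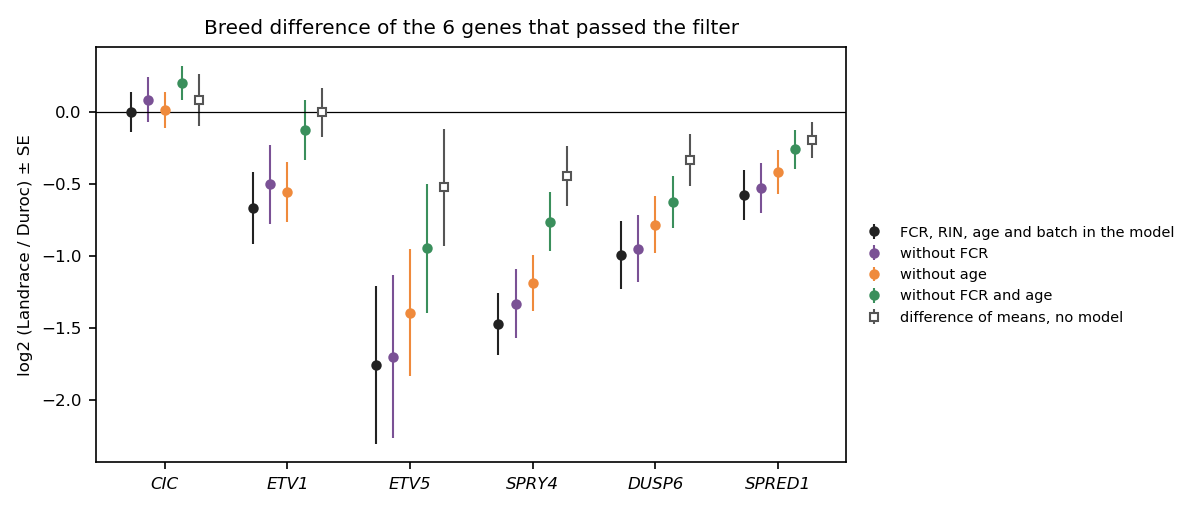
Difference between breeds as log2 of Landrace over Duroc (vertical axis, with SE bars) for the 6 genes that passed the filter: edgeR estimates with all covariates (black), without FCR (purple), without age (orange) and without both (green), and the plain difference of mean log2 CPM (open squares). All 5 targets lie below 0 with all covariates, and each moves toward 0 as FCR and age are left out, ETV1 from -0.66 to -0.12.

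Markers of several cell types passed for breed in the same fit, where 17.5% of all genes were lower in Landrace and 15.6% higher. All 5 tested endothelial genes were lower in Landrace, among them KDR, a receptor of vessel growth (-1.48, edgeR FDR = 9.52e-06), and CDH5 (-0.95, edgeR FDR = 3.68e-05). Both tested Schwann cell genes were lower, PMP22 (-0.81, edgeR FDR = 0.0137) and PRX (-0.81, edgeR FDR = 0.0494), as were 2 of 4 junction genes, ACHE (-2.81, edgeR FDR = 0.0038) and CHRNA1 (-1.50, edgeR FDR = 0.00411), and 2 of 4 satellite cell genes, PAX7 (-1.18, edgeR FDR = 0.00467) and CALCR (-1.46, edgeR FDR = 0.0157). All 5 skeletal muscle fibre genes were higher, led by TNNT3 (0.60, edgeR FDR = 0.00108). Of the other lists, 1 of 5 slow fibre, 1 of 8 leukocyte, 2 of 4 adipocyte and 2 of 7 fibroblast genes were lower and none was higher. These estimates come from the fit with FCR and age, and the markers were not refitted without them. In CPM, without the model, the medians in Duroc and Landrace were 1.73 and 1.05 for ACHE and 7.27 and 5.36 for CHRNA1. For PMP22 they were 26.4 and 19.8, and for KDR 7.80 and 4.89. The part of the markers in the breed difference of the axis was not tested.

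The rest of the pathway moved unevenly with breed in the fit with FCR and age, and its genes were not refitted without them. Over 8 lists of pathway genes fixed for this work, with 80 distinct genes matched and 65 tested, 9 genes were higher in Landrace and 23 lower, 49.2% of those tested, against 33.1% of all genes (15.6% higher and 17.5% lower), which is also the background of the counts by list. Of 14 other ETS factors, 8 were lower and 2 higher, with the vessel factors ERG (-0.89, edgeR FDR = 0.000969) and ETS1 (-0.97, edgeR FDR = 0.00249) lower, and ETS2 (0.90, edgeR FDR = 0.00323) and GABPA (0.22, edgeR FDR = 0.075) higher. Of 11 receptors upstream of ERK, 6 were lower, led by KDR and by PDGFRB, a receptor of pericytes (-1.42, edgeR FDR = 2.3e-05), and ERBB2 was higher (0.80, edgeR FDR = 0.00104). Of 23 members of the RAS-ERK cascade itself, 6 were higher, led by SOS2 (0.42, edgeR FDR = 0.00168) and BRAF (0.34, edgeR FDR = 0.00513), and 3 lower, led by RPS6KA1 (-0.83, edgeR FDR = 0.0485). Among 4 other Sprouty and Spred genes, SPRED2 (-0.74, edgeR FDR = 3.59e-05) and SPRY2 (-0.49, edgeR FDR = 0.0918) were lower. Of 4 tested genes commonly scored for ERK activity outside the axis, which include SPRY2, 3 were lower, among them EPHA2 (-1.14, edgeR FDR = 0.000355) and CCND1 (-0.95, edgeR FDR = 0.000616). Of 8 immediate-early genes 2 were lower, IER2 (-0.83, edgeR FDR = 0.00724) and IER3 (-0.92, edgeR FDR = 0.0366). Neither of the ataxins that work with CIC, ATXN1 and ATXN1L, passed, nor did the 1 tested phosphatase of the DUSP4, DUSP5, DUSP7 and DUSP9 list.

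For RNA integrity CIC passed the edgeR test and none of its targets did, with the same limit from the choice of genes. CIC rose by 0.62 ± 0.12 on the log2 scale for each RIN unit (edgeR FDR = 6.41e-05), with 51.8% of all genes passing for RIN, 23.9% rising and 27.9% falling. CIC alone of the 6 passed with DESeq2 and with limma too, where 52.3% and 50.1% of all genes passed. The other 5 genes had values from -0.27 (SPRY4) to 0.34 (ETV5) per unit, and the lowest FDR among them was 0.178. In plain log2 CPM, CIC and RIN correlated at r = 0.681 (permutation p = 4e-05, adjusted 0.00028 over the 7 genes) and rho = 0.502 (permutation p = 0.00111, adjusted 0.00777). Without adjustment for the other covariates, the rank correlation with RIN also passed for ETV5 (rho = 0.418, adjusted permutation p = 0.0236, r = 0.277, adjusted 0.184) and SPRED1 (rho = 0.399, adjusted permutation p = 0.024, r = 0.316, adjusted 0.154), whereas their r did not pass. Within batches 2, 3 and 5 the r was 0.0488, 0.723 and 0.0178 for ETV5 and 0.00699, 0.349 and 0.396 for SPRED1. The r of CIC was 0.840 within Duroc, 0.711 within Landrace, 0.703 within batch 2, 0.664 within batch 5 and -0.180 within batch 3, so it did not hold in batch 3. In Duroc, replicate 10 stood at a log2 CPM of 2.46 and the next lowest pig, replicate 13, at 3.65. The Duroc r was not worked out without replicate 10. The 2 pigs with the least CIC had low RIN, Duroc replicate 10 a RIN of 7.0 and Landrace replicate 27 of 6.6. Next came Duroc replicate 13, at 12.5 CPM with a RIN of 7.9, and Landrace replicate 1, at 13.0 CPM with a RIN of 6.5. Without the 2 pigs with a RIN below 7 the estimate was 0.58 (edgeR FDR = 0.00352), and without the 2 pigs farthest from the median RIN the plain r was 0.558.

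Within breeds, DESeq2 gave CIC 1.23 ± 0.35 per RIN unit in Duroc (FDR = 0.03, with 3.21% of 11292 genes passing) and 0.51 ± 0.12 in Landrace (FDR = 0.000272, with 43.7% of 10874 genes passing). The Duroc slope was not refitted without replicate 10, the pig of that breed with the least CIC and the lowest RIN. ETV5 in Duroc had -1.59 ± 0.63 per unit (DESeq2 FDR = 0.144) and in edgeR -1.60 (FDR = 0.289), opposite in sign to its value over both breeds, and did not pass. DESeq2 set no FDR for ETV1, SPRY4, DUSP6 and SPRED1 in Duroc. In edgeR the Duroc value was 1.28 with an FDR of 0.225, and 0 of 10509 genes passed there (17.4% at an unadjusted p under 0.05). The difference between the breeds in this slope was -0.62 ± 0.25 (Landrace minus Duroc, edgeR p = 0.0173, FDR = 0.947), and with the FDR no gene passed that test (541 of 11146, or 4.85%, at an unadjusted p of 0.05). ATXN1L (0.65, edgeR FDR = 3.44e-07) and ATXN1 (0.36, edgeR FDR = 0.00448) rose with RIN as CIC did, and of the RAS-ERK cascade 11 of 23 genes rose, led by NF1, a brake on RAS (0.93, edgeR FDR = 1.79e-06), and 6 fell. Over the 65 pathway genes 25 rose and 10 fell, 53.8% of those tested, near the 51.8% of all genes. All 5 slow fibre genes fell with RIN, among them TNNC1 (-0.87, edgeR FDR = 0.0026), 3 of 8 leukocyte genes fell, 3 of 7 fibroblast genes rose, and of 5 skeletal fibre genes 1 rose and 2 fell. None of the tested junction, Schwann, endothelial, satellite cell or adipocyte markers passed. Their part in the relation of CIC to RIN was not tested. CIC did not pass with the fibroblast score (r = 0.21), and its r of 0.443 with the RAS-ERK score (rho = 0.290, adjusted permutation p = 0.0236) was -0.631 within batch 3 and 0.840 within batch 5.

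None of the 6 genes passed for age in the edgeR test, where 1.76% of all genes passed, nor with DESeq2 (5.06%) or limma (2.52%). SPRY4 came closest, at 0.45 ± 0.18 on the log2 scale for 10 days (edgeR p = 0.02, FDR = 0.22), and it was the only 1 of the 6 at an unadjusted p under 0.05 in edgeR and in DESeq2, while limma had none. At that unadjusted p stood 16% of all genes in edgeR, 17.2% in DESeq2 and 16.3% in limma. Of the marker lists, 2 of 5 endothelial genes rose with age and no other marker passed. With FCR left out SPRY4 passed, at 0.69 (edgeR FDR = 0.054). Batch was related to SPRY4 (edgeR FDR = 0.0146), DUSP6 (edgeR FDR = 0.0179) and ETV1 (edgeR FDR = 0.0793), 3 of the 6 genes against 24.1% of all genes. With limma only DUSP6 passed (FDR = 0.0824, 22.3% of all genes).

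The values on FCR are those by which the genes were chosen, and are given as estimates only, on the reading of FCR as feed divided by growth. In the fit over both breeds edgeR called 0 of 11146 genes for FCR (0%), with 968 at an unadjusted p under 0.05 (8.68%), DESeq2 called 5 of 10765 (0.0464%) and limma 0. Coefficients were above 0 for 51.5% of all genes and for all 6 tested genes of the axis. As log2 change for a step of 0.1 in FCR, ETV5 had 0.44 ± 0.21, ETV1 0.32 ± 0.095, SPRY4 0.29 ± 0.085, CIC 0.16 ± 0.055, DUSP6 0.10 ± 0.088 and SPRED1 0.09 ± 0.065. ETV4, in the fit without a filter, had 0.55 ± 0.42. The values for the repressor CIC and for its targets had the same sign. That did not hold in plain log2 CPM, where Pearson's r with FCR over all pigs was 0.375 for ETV1, 0.267 for CIC, 0.194 for SPRY4, 0.123 for ETV5, 0.0559 for SPRED1, -0.0133 for ETV4 and -0.0394 for DUSP6. Within batch 3 it was -0.320 for ETV5, -0.402 for DUSP6, -0.219 for ETV4 and -0.0282 for SPRY4. Within batch 2 it was above 0 for every gene, at 0.775 for ETV5, 0.422 for DUSP6, 0.415 for ETV4 and 0.500 for SPRY4.

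Within breeds DESeq2 gave values above 0 for all 6 in Duroc, where 54.1% of 11292 genes were above 0, and in Landrace, where 49.1% of 10874 were. ETV5 had 0.85 ± 0.20 in Duroc and 0.33 ± 0.26 in Landrace, DUSP6 0.31 ± 0.14 and 0.00 ± 0.12, SPRY4 0.37 ± 0.12 and 0.27 ± 0.12, and ETV1 0.28 ± 0.20 and 0.39 ± 0.14. CIC had 0.17 ± 0.11 and 0.12 ± 0.071, and SPRED1 0.15 ± 0.15 and 0.08 ± 0.078. For ETV5, DUSP6 and CIC a single pig carried much of the Duroc value, while SPRY4 stayed between 0.34 and 0.48 and ETV1 between 0.24 and 0.32 whichever pig was left out. Replicate 6 had the highest FCR of that breed (2.18) and was second in ETV4 and ETV5, and without it ETV5 stood at 0.50 and CIC at -0.00. Leaving out Duroc replicate 11, with the lowest FCR (1.83), gave 1.06 for ETV5, 0.34 for CIC, 0.45 for DUSP6 and 0.021 for SPRED1. DUSP6 stood at 0.18 without replicate 6, and CIC at 0.090 without replicate 10. In Landrace, ETV5 stood at 0.12 without replicate 7 and 0.18 without replicate 11, SPRED1 at 0.027 without replicate 8 and CIC at 0.18 without replicate 23, and DUSP6 took either sign (-0.044 to 0.052). Over both breeds, ETV5 stood at 0.28 without Duroc replicate 6, and DUSP6 at 0.025 without that pig and 0.15 without Landrace replicate 24. Other lists had values above 0 over both breeds as well. All 8 tested immediate-early genes did, with a median of 0.29, and 4 of them stood at an unadjusted p under 0.05 (8.68% of all genes) while none passed the FDR in edgeR. All 7 fibroblast genes did, with a median of 0.16, and so did the 4 junction and 2 Schwann cell markers tested: ACHE 0.43 ± 0.27, MUSK 0.22 ± 0.16, CHRNA1 0.22 ± 0.15, LRP4 0.21 ± 0.14, PRX 0.20 ± 0.11 and PMP22 0.13 ± 0.087. Other lists lay mostly below 0, with 1 of 8 leukocyte genes (median -0.10), 1 of 5 skeletal muscle fibre genes (median -0.07) and 1 of 4 satellite cell genes (median -0.02) above it. Of 5 endothelial genes 3 were above 0, of 5 slow fibre genes 4 and of 4 adipocyte genes 3. Their part in the FCR values was not tested.

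**Figure D5:**
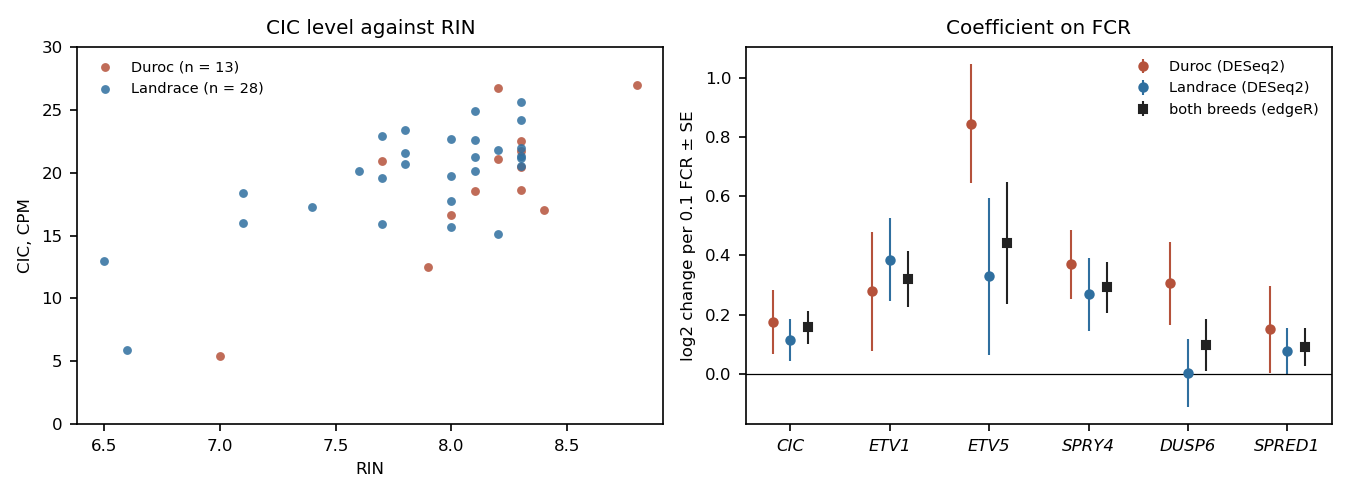
Left, CIC in CPM against RIN for each pig. Right, change in log2 level for a step of 0.1 in FCR (with SE bars) within Duroc, within Landrace and over both breeds for the 6 genes that passed the filter. The 2 pigs below 10 CPM of CIC have RIN of 6.6 and 7.0, and on the right ETV5 in Duroc is the highest value (0.85) and DUSP6 in Landrace the lowest (0.00).

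The study also modelled FCR from pairs of genes, with the 2 adjusted levels and their product, among a set of genes selected on FCR. A model of that form was fitted here as a description, with each gene of the axis paired with every other gene that had at least 5 counts in every pig, so the pairs are not those of the study. With CIC as a partner, 643 of 10764 product terms (5.97%) had a p under 0.05, against a median of 4.52% over all genes as partner. The shares were 8.26% for SPRED1, 5.25% for SPRY4, 3.68% for DUSP6, 3.60% for ETV5 and 0.762% for ETV1. The shares moved with the setting. With FCR adjusted for the same covariates they were 10.5% for CIC, 3.37% for DUSP6, 2.46% for ETV5, 2.10% for SPRY4, 1.90% for ETV1 and 0.539% for SPRED1. On log2 CPM they were 6.61% for SPRED1, 6.56% for ETV5, 4.94% for DUSP6, 4.59% for CIC, 4.12% for SPRY4 and 1.07% for ETV1. The median over all genes was not worked out for these 2 settings, so their shares have no background. The partners share the same 41 pigs and are not independent.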

How the data were processed

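The authors trimmed the reads (Trimmomatic 0.39), aligned them with STAR 2.7.1a to Sscrofa11.1 with Ensembl genes, and deposited raw, unstranded read pair counts per gene for each of the 41 pigs. The deposited counts were not normalized. Rows naming no gene held 19.12% to 30.14% of each library and were left out. Breed, FCR, RIN, age and batch came from the labels. Counts were scaled by TMM and tested with edgeR 4.0.16 (quasi-likelihood, genes passing filterByExpr, 11146 of 25880), with DESeq2 1.42.0 (at least 5 counts in every pig, 10765 genes) and limma 3.58.1 as alternatives, and by DESeq2 within breeds. FDR was set at 0.1. In simulated counts of the same depth edgeR recovered 94.9% of genes changed by a log2 difference of 1 between breeds (11125 genes), with 11.7% of its calls false. DESeq2 recovered 95.4% (10988 genes), with 17.2% of its calls false.

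Correlations used log2 CPM (prior count 2) with the model's covariates regressed out, and 100000 two-sided permutations, which do not count the covariates fitted (Python 3.11.15, scipy 1.17.1). No 2 libraries looked like repeats of each other (820 pairs compared by chi-square). P-values measure the spread between pigs. The 7 genes, the gene lists and the tests were chosen with earlier results of these data known. Named are the 7 genes, the genes of fixed lists that passed for breed or RIN (at most the 2 with the smallest p per list and direction), marker genes of fixed lists, and the 3 genes most like each of the 7. Pig numbers within a breed follow accession order. Of the listed symbols, 17 matched no gene, and a few genes stand in more than 1 list. A few genes that the rule names are not reported here. No sequence is printed because none was given for these genes.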

Additional observations from a re-analysis of the deposited data

How the results depend on the processing

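Of the 6 genes, 5 passed for breed under every tool, scaling and filter tried and with age left out, 4 with FCR left out, 2 with FCR and age left out and 3 without batch 2 (the last pair of settings chosen after seeing the data), and 4 to 5 without each pig in turn. For RIN, 1 gene passed except with scaling by library size only, where 3 did (CIC, ETV1 and SPRED1), and without Landrace replicate 16, where SPRY4 also passed (range 1 to 2). For age, 0 passed in each setting, single pigs left out included (0 to 0), except 1 with FCR left out. For batch, limma called 1 in place of 3. Within Duroc, edgeR called 0 for RIN in place of 1. Fitted coefficients on FCR above 0 numbered 6 over both breeds in every setting of the model and 5 to 6 within Duroc and within Landrace as each pig was left out. Age called 8 of 63 pathway genes with DESeq2 (12.7%, all genes 5.06%) and 7 of 65 with limma (10.8%, all genes 2.52%) in place of 4 of 65 (6.15%, all genes 1.76%). Of the 15 pairs, 4 passed in Duroc alone and 10 or 11 elsewhere, and 39 of 66 pairs with list scores passed without adjustment in place of 19.

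Across the tools, scalings, filters and adjustments tried on all pigs, signs turned for values that did not pass and for CIC with ETV1 (0.0115 without adjustment). Some values that passed also turned within 1 breed or batch, as given above. CIC by breed turned with limma (-0.029), library size only (-0.19) and a minimum of 5 counts (-0.0056), and ran from -0.094 to 0.094 as each pig was left out. RIN turned with library size only for SPRY4 (0.028) and DUSP6 (0.19), with batch as a number for ETV1 (-0.016) and without pigs of RIN below 7 for DUSP6 (0.10), which ran from -0.15 to 0.10 as single pigs were left out. CIC by age ran from -0.065 to 0.096. Without adjustment CIC turned with ETV5 (0.241) and SPRY4 (0.107), and with SPRY4 also with batch as a number (0.0579) and library size only (0.202). List scores turned without adjustment for CIC with adipocytes (0.215) and fibres (-0.289), ETV1 (0.140) and ETV5 (0.113) with immediate-early genes and SPRY4 with leukocytes (0.129). Library size alone moved the median gene by -0.18 for breed and 0.30 for RIN, with 87.1% and 12.4% of calls downward against 53.0% and 53.8%. The cause of these changes was not tested.

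No paired analysis was possible because pig numbers only follow accession order. Low counts limit ETV1 and ETV4 most.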
